A study of Homo sapiens with 192 samples.

Results

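Recurrent intergenic features near genes were the stretches of open chromatin that were seen again and again in single HAP1 nuclei while lying outside annotated promoters and protein-coding gene bodies. A feature was included if it lay on chromosomes 1 to 22, had at least 1 read pair in 10 or more of the nuclei (96 in each of 2 plates), had no annotated transcription start (GENCODE 44) within 1000 bp of its edges, overlapped no protein-coding gene body, and had its centre at most 500000 bp from the start of a protein-coding gene. Of the 80971 features in the count table, 1872 met this rule (2.31%). They made up 21.1% of the 8887 features of chromosomes 1 to 22 that were seen in 10 or more nuclei.

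HAP1 is a near-haploid, adherent human cell line that arose from KBM-7, a line grown from a chronic myeloid leukemia, so it is a single line and stands for no tissue. In plate-based snATAC-seq, the transposase Tn5 inserts adapters into accessible DNA of many nuclei at once, and nuclei are then sorted singly into wells where an index is added by PCR. Cells labeled with CASB, in which the lectin concanavalin A ties a barcode DNA to glycoproteins of the membrane, had been pooled with unlabeled cells, all of them HAP1, and 96 nuclei were sorted into each of 2 plates. Which nuclei carried CASB is not known here, no separate cultures are named, and each plate therefore counts as 1 mixed sample. No test was made between plates, and intervals are exact (Clopper-Pearson) 95% intervals that cover counting error only.

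Intergenic accessible sites are in large part enhancers, insulators and unannotated or cryptic promoters. Enhancers are short stretches on which sequence-specific transcription factors sit side by side and displace nucleosomes, and they act on promoters over distance, often past the nearest gene. CTCF, a zinc-finger protein with a long motif, marks insulators and the anchors of chromatin loops, while factors of the POU, SOX, AP-1 and TEAD families typically mark enhancers of particular cell types and states. Naming a feature by its nearest gene below gives its place and says nothing of the gene it may act on.

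The sequences that follow show what such features hold at their centres. The first set is taken from the 20 features seen in the most nuclei. The rule for printing was a CTCF, AP-1 or TEAD motif in the centre with 100 bases to either side, by which the ZNF648 feature is shown. The OTOL1 and FLRT2 features, with a POU and a SOX motif, were chosen after the values were seen. They are the plus strand of hg38, named by the nearest protein-coding gene, with the motif in capitals. For OTOL1 the capitals mark the POU octamer ATGCAAAT, for ZNF648 a 12-letter CTCF match with at most 1 mismatch, and for FLRT2 the SOX motif AACAATG read on the other strand.
OTOL1 (chr3:161674024-161674224): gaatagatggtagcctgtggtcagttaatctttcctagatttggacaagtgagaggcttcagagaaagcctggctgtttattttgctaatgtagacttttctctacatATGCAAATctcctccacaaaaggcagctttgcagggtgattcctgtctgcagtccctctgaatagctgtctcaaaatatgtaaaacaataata
ZNF648 (chr1:182029756-182029956): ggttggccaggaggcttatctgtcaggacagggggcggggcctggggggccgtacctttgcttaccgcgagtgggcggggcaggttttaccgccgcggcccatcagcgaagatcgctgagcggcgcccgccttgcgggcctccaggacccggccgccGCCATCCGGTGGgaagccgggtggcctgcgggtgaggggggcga
FLRT2 (chr14:85875871-85876071): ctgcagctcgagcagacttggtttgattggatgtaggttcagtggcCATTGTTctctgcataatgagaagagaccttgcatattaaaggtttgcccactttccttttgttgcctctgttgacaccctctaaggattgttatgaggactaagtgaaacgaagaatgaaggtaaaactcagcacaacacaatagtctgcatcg
The OTOL1 feature was seen in 19 nuclei of plate 1 and 18 of plate 2, the ZNF648 feature in 25 and 11, and the FLRT2 feature in 15 and 20. The ZNF648 sequence is rich in CG pairs, while the other 2 are not.

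The second set shows the joint SOX and POU element, in which a SOX site and an octamer stand side by side (CATTGTNATGCAAAT, both strands). These 3 recurrent intergenic features carry it with at most 1 mismatch within 100 bases of their centre, and they were chosen after the values were seen. The element is in capitals and runs on the minus strand in all 3.
GORAB (chr1:170586215-170586415): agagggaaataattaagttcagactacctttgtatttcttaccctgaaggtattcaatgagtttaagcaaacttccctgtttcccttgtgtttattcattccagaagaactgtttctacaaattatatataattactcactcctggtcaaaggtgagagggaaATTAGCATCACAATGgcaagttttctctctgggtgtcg
OR9H1P (chr1:247790537-247790737): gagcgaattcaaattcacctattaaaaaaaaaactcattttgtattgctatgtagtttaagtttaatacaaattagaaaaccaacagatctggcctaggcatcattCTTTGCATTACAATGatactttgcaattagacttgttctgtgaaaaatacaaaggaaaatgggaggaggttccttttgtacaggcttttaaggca
NECTIN3 (chr3:110995769-110995969): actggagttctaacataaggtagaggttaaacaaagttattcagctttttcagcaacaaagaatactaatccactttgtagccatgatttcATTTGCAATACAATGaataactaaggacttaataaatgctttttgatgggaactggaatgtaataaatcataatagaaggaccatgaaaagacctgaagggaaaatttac
The GORAB feature was seen in 8 nuclei of plate 1 and 7 of plate 2, the OR9H1P feature in 2 and 9, and the NECTIN3 feature in 7 and 4. The GORAB feature thus lay above the median of the set, which was 13 nuclei, and the other 2 below it.

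Because the rule used the number of nuclei, the numbers of nuclei are a description. The 1872 features were seen in 10 to 54 nuclei, with a median of 13 and quartiles of 11 and 16. Many sat close to the limit. Of them, 407 were seen in exactly 10 nuclei, with 10 to 19 read pairs each (median 11), and 495 features of the same position were seen in 9 nuclei, with 9 to 19 read pairs (median 10), and were left out. At the other end, 238 features (12.7%) were seen in 20 or more nuclei, 43 in 30 or more and 6 in 40 or more.

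Nuclei of a plate are not all independent. Pairs of nuclei were taken within a plate and pooled over both plates, with shares of the features of the nucleus with fewer. Nuclei 73 to 84 shared a median of 56.5% (16.5 to 94.2%) with the nucleus at the same position among nuclei 37 to 48. With that among nuclei 85 to 96, they shared a median of 29% (5.35 to 88.2%). Nuclei 37 to 48 and 85 to 96 shared 6.89%, and other pairs of nuclei of a plate 5.39%. With the nuclei at each such position merged into 1, 1533 of the 1872 features (81.9%) still reached 10. The lowest count was then 6. Over all features of chromosomes 1 to 22 seen in 10 or more nuclei, 84.5% did so. Without the 72 nuclei concerned, 120 nuclei were left and 344 features still reached 10, with a median of 7 over the whole set. For the 15 features seen in the most nuclei, the count fell from 36 to 54 nuclei to 29 to 45 after merging and to 14 to 27 without the 72 nuclei. The ZNF692 feature stayed first after merging, with 45, and the GRM3 feature followed with 39, the GBA3 feature with 38 and the SCYGR8 feature with 37. Numbers of nuclei below are over all nuclei, and the main shares are also given with these nuclei merged or left out.

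The counts were shallow. A nucleus had from 30 to 12449 read pairs in features in plate 1 (median 1522.5) and from 20 to 15351 in plate 2 (median 1702.5), and 83 and 79 nuclei passed the filter of more than 300 features. The starts of housekeeping genes were open in 10 or more nuclei for 4 of 6 genes on chromosomes 1 to 22, among them TBP, ACTB and GAPDH. None of 9 hematopoietic genes of the parent line reached 10 nuclei (highest 4), and 2 of 8 genes of the adherent state did, CAV1 and VIM. Over all protein-coding genes of chromosomes 1 to 22, 18.5% had a feature in 10 or more nuclei within 1000 bp of the start. The median was 0 nuclei in the hematopoietic and in the adherent list. The defining hematopoietic starts were thus near 0, and most adherent starts were not seen in 10 nuclei either. The 2 adherent genes are too few to give that label from these data.

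The 1872 features together held 16176 of the 241927 read pairs of plate 1, or 6.69% with an interval of 6.59 to 6.79%, and 16401 of the 241240 of plate 2, or 6.80% with an interval of 6.70 to 6.90%. The plates' intervals overlapped. A passing nucleus of plate 1 showed from 12 to 530 of the features and one of plate 2 from 16 to 587, so any single nucleus displayed a small part of the set. The share of a nucleus' read pairs that fell in them ran from 2.59 to 11% in plate 1 (median 6.89%) and from 3.09 to 10.6% in plate 2 (median 7.01%). An average feature of the set was seen in 8.56% of the passing nuclei of plate 1 and in 8.99% of those of plate 2. Recurrent features inside protein-coding genes and away from starts, 1750 in number, were at 8.16 and 8.91%, and the 2761 recurrent features at protein-coding gene starts at 9.73 and 10.4%. The intergenic features thus lay between these classes in either plate, nearer to the intragenic ones. All of these classes were cut at the same limit of 10 nuclei, so the order is a description.

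The most often seen feature lay at chr1:248873812-248874812, in no annotated gene, 15168 bp upstream of ZNF692, which encodes a zinc-finger protein. It was seen in 28 nuclei of plate 1 and 26 of plate 2, or in 33.7 and 32.9% of passing nuclei with intervals of 23.7 to 44.9% and 22.7 to 44.4%, and held 82 read pairs. The second, at chr7:86320092-86321092, lay 323317 bp upstream of GRM3, a metabotropic glutamate receptor gene, and was seen in 25 and 22 nuclei. The third, at chr2:227772701-227773701, lay 27307 bp beyond the start of SCYGR8 and was seen in 17 and 28 nuclei. In these 3 features the plates' intervals overlapped, though the third was seen more in plate 2.

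The fourth feature lay 62501 bp upstream of GBA3, a cytosolic beta-glucosidase gene, and was seen in 20 nuclei of plate 1 and 25 of plate 2. The fifth was 359524 bp from BTG1, a gene that restrains proliferation, with 16 and 27 nuclei. The sixth was 243376 bp from NDFIP2, an adaptor of NEDD4 ubiquitin ligases, with 19 and 23 nuclei. Both plates showed each of these 3 features in 16 or more nuclei.

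The next places were taken by features near ASB4 (18 nuclei of plate 1 and 21 of plate 2), a gene of a SOCS-box protein, and BRINP3 (16 and 23). The latter lay 491687 bp from the gene, close to the limit of the rule. A feature 19981 bp from NDUFB4, a subunit of respiratory complex I, was seen in 16 and 22 nuclei and held up to 7 read pairs in 1 nucleus. It holds a POU octamer, as do the ASB4, BRINP3 and OTOL1 features, of which the OTOL1 feature alone has it within 150 bases of the centre. The feature near SEMA3A, a secreted axon guidance factor, was seen in 19 and 19 nuclei, and that near CTH, an enzyme of cysteine synthesis, in 21 and 17.

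Further down the order, the CCNG1 (cyclin G1), OTOL1, ATP2B1 (a plasma membrane calcium pump) and TSN features lay within lncRNA genes, and the ZNF648, EPHA4, FLRT2 and MLLT3 features in no annotated gene. Each was seen in 11 or more nuclei of either plate. EPHA4 encodes an ephrin receptor, FLRT2 a cell adhesion protein and MLLT3 (AF9) a partner of transcription elongation complexes. In the plot of the first 15 features by plate, the intervals of the plates overlapped for every feature, and the ZNF648 feature came closest to separating, with 30.1% of passing nuclei in plate 1, where the interval ran from 20.5 to 41.2%, and 13.9% in plate 2, where it ran from 7.16 to 23.5%.

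**Figure D1:**
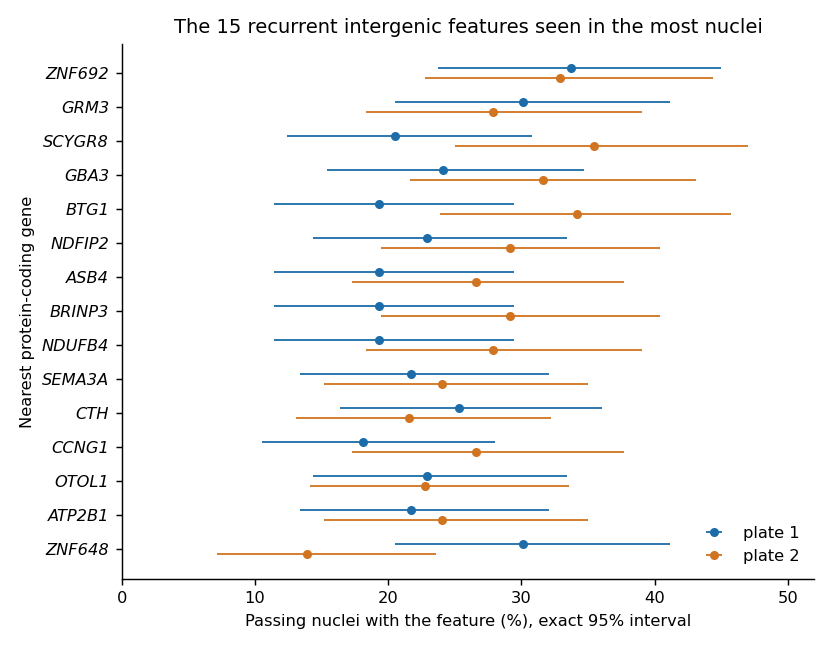
Percentage of passing nuclei of plate 1 (n = 83) and plate 2 (n = 79) with each of the 15 recurrent intergenic features seen in the most nuclei, named by the nearest protein-coding gene. Points are the values and bars the exact 95% intervals, which overlap between plates for all 15, with the widest gap for ZNF648 at 30.1 and 13.9%.

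Over the whole set, 1069 features were seen in a larger percentage of passing nuclei in plate 2 and 803 in plate 1. For 443 features (23.7%) the percentages differed by 2-fold or more, 209 toward plate 1 and 234 toward plate 2. Over all 8887 features of chromosomes 1 to 22 seen in 10 or more nuclei, this background was 22.8%, so the share among the intergenic features was near it. Without nuclei 37 to 48 and 73 to 96, it was 40.4% against 38.7%, and the larger part was then toward plate 1, with 470 features beside 286 toward plate 2. Over all 8887, the split turned likewise, from 848 toward plate 1 and 1175 toward plate 2 to 2065 and 1375. The plates' intervals failed to overlap for 12 of the 1872 features (0.641%), 6 in either direction, beside a background of 0.349% (31 of 8887). Without those nuclei, this held for 1 of the 1872 and 5 of the 8887.

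The 5 largest plate differences were picked for their size and are given as values. The feature 3522 bp upstream of PCDH15, a protocadherin gene of hair cells and photoreceptors, was seen in 1 nucleus of plate 1 and 17 of plate 2. The feature 20245 bp upstream of DCHS2, a cadherin gene, was seen in 0 of the 83 passing nuclei of plate 1, which allows a share of up to 3.61% if taken as 3 counts and 4.35% by the exact interval, and in 15 of plate 2. Neither was seen in more than 1 nucleus of plate 1. In the other direction, the feature 61097 bp upstream of AOAH was seen in 21 and 7 nuclei. The ZNF648 feature was seen in 25 and 11, and the feature near EEA1, an early endosome protein, in 15 and 2. Outside nuclei 37 to 48 and 73 to 96, the PCDH15 feature was seen in 4 nuclei and the DCHS2 feature in 6, and with the wells merged in 13 and 12. The part of these wells in the differences was not tested.

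Reading the other plate asks whether recurrence carries over. That plate took no part in the choice by number of nuclei. Its reads did take part in the calling of peaks, which used all nuclei jointly, so the reading is not fully independent. Among features of the same position, 2436 were seen in 5 or more nuclei of plate 1, and they were seen in a mean of 5.41% of the nuclei of plate 2. The 17084 features seen in 1 to 4 nuclei of plate 1 were at 1.59%. In the other direction, 2551 features chosen on plate 2 were seen in 5.20% of the nuclei of plate 1, and 15984 others in 1.69%. Without nuclei 37 to 48 and 73 to 96, the values were 5.35 against 1.67% and 7.73 against 2.35%. With 4 or more nuclei as the limit, they were 4.39 against 1.46% and 4.27 against 1.57%. In each of these readings, features often seen in 1 plate were seen in more nuclei of the other than rarely seen ones. The rarely seen ones leave out features with 0 nuclei in the choosing plate. These numbered 5913 for plate 1 and 6898 for plate 2, and were in 2.31 and 2.28% of the nuclei of the other plate.

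The relation was graded. Features seen in 5 to 6 nuclei of plate 1 were in 4.05% of the nuclei of plate 2, those seen in 7 to 9 nuclei in 5.93%, those seen in 10 to 14 in 8.79%, and the 72 seen in 15 or more in 14.6%. The last group had a median of 13 nuclei in plate 2, and none of it was missing there. The lowest value, 0.974%, was that of the 8353 features seen in exactly 2 nuclei of plate 1. Features with 0 or 1 nucleus in plate 1 were above it at 2.31 and 2.13%, and every feature with 0 entered the table through plate 2. Pairs of nuclei that share features fall in the group with 2 nuclei, and their part in its low value was not tested.

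**Figure D2:**
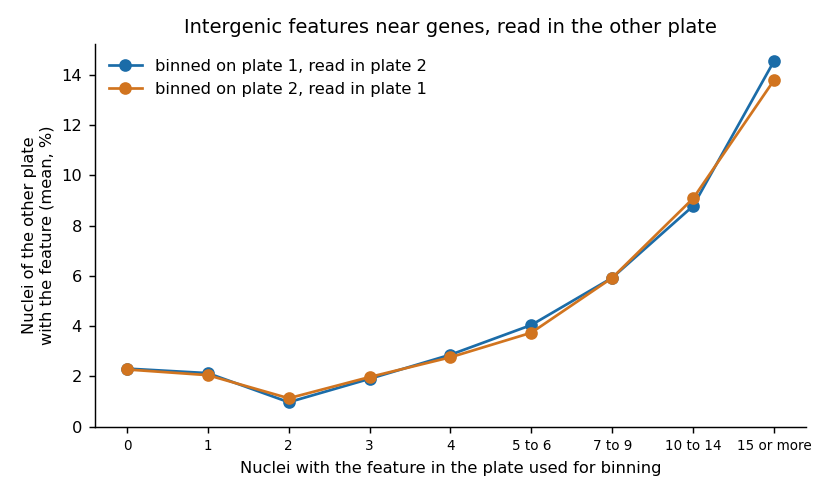
Mean percentage of nuclei of one plate with an intergenic feature near genes, against the number of nuclei that showed it in the other plate, for features binned on plate 1 (read in plate 2) and binned on plate 2 (read in plate 1). Both lines are lowest at 2 nuclei, at 0.974 and 1.13%, and highest at 15 or more, at 14.6 and 13.8%.

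A nucleus with a feature mostly had 1 read pair in it. Of the 26829 pairs of a nucleus and one of the 1872 features it showed, 16.8% had 2 or more read pairs and 3.45% had 3 or more. Recurrent intragenic features were at 16.3 and 3.11%, recurrent gene starts at 19.8 and 4.94%, and intergenic features seen in 2 to 9 nuclei at 12.5 and 2.40%. Intergenic features seen in 1 nucleus all had 2 or more read pairs there. With them included, features seen in 1 to 9 nuclei were at 14.03 and 3.38%. All 80971 features were at 15.3 and 3.53%. The share with 3 or more read pairs in the recurrent intergenic features was thus near these values and is not set apart. Over nuclei outside the wells that share features, 16.6% of the pairs with a recurrent intergenic feature had 2 or more. The highest count in the recurrent intergenic features was 12 read pairs in 1 nucleus. Among features seen in 20 or more nuclei, the highest shares of seen nuclei with 2 or more read pairs were those near COL5A2, a fibrillar collagen gene (11 of 21 nuclei), SLC25A13 (12 of 26), STX11 (10 of 22), PPP1R9A (10 of 22) and GADD45G, a stress response gene (10 of 22).

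The features were spread over the intergenic sequence rather than close to gene starts. Their distance to the nearest protein-coding gene start had a median of 109735 bp, with quartiles of 36737 and 240551 bp. The 22144 features of the same position seen in 2 to 9 nuclei had a median of 105828 bp, and the 238 recurrent features seen in 20 or more nuclei one of 130926 bp. Windows of the features' length placed every 1000 bases over the sequence that met the position rule, 1055 Mb in all, had a median of 95777 bp. Per Mb of such sequence, recurrent features numbered 1.54 within 10 kb of a start, 1.64 from 10 to 50 kb, 1.68 from 50 to 100 kb, 1.98 from 100 to 250 kb and 1.86 from 250 to 500 kb. Features seen in 1 to 9 nuclei ran from 20.8 to 23.8 per Mb.

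**Figure D3:**
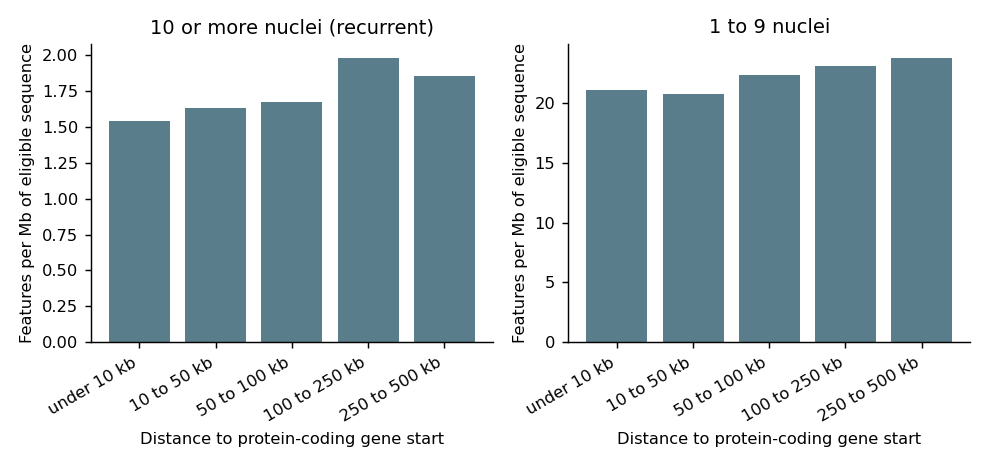
Features per Mb of sequence that met the position rule, by distance from the feature centre to the nearest protein-coding gene start. The left panel shows the 1872 recurrent features, from 1.54 per Mb under 10 kb to 1.98 per Mb at 100 to 250 kb, and the right panel the features of the same position seen in 1 to 9 nuclei, from 20.8 to 23.8 per Mb.

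The 3 features nearest to a start were those upstream of MGAT5, a glycosyltransferase gene (1514 bp), ANTXRL (1581 bp) and BEND3 (1590 bp), each seen in 10 nuclei. The 3 farthest lay 499603 bp from GBA3 (12 nuclei), 499292 bp from NXPH1 (10 nuclei) and 499178 bp from GTDC1 (23 nuclei). Of the 1872, 65.0% lay upstream of their nearest gene, beside 66.4% of features seen in 2 to 9 nuclei. In no annotated gene were 1333 (71.2%), 521 lay within lncRNA genes (27.8%, beside 29.4% for features seen in 2 to 9 nuclei) and 18 within genes of other types. In kind of place, then, the recurrent features differed little from the rarer ones.

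Chromosomes differed more. Chromosome 3 had 190 features, or 27.3 per 10 Mb of eligible sequence, chromosome 7 had 25.7 and chromosome 2, with 219 the largest number, 23.2. Chromosomes 19 and 22 had 1 feature each, or 0.598 and 0.802 per 10 Mb, and chromosome 17 had 9, or 3.32. Of all intergenic features near genes, 7.36% were recurrent. This share was highest on chromosome 2 (9.19%), followed by chromosomes 1 (9.04%) and 3 (8.94%), and lowest on chromosomes 17 (2.66%), 22 (0.917%) and 19 (0.806%). The same chromosomes thus stood at the low end by either measure. With wells merged, chromosome 7 had 22.7 features per 10 Mb, chromosome 3 had 22 and chromosome 2 had 19.9, beside 2.21 on chromosome 17 and still 1 feature each on chromosomes 19 and 22. The number of copies of each chromosome in these cells was not examined.

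Some features lay close together, and no such count was made for other classes of features. Of the 1872, 308 overlapped another one and 530 (28.3%) had another within 20 kb, while the median distance to the next was 116115 bp. With overlapping features counted once, 1713 were left. The numbers of features per gene below count overlapping features separately. Counted by nearest gene, 1175 protein-coding genes had at least 1 feature, which is 6.15% of the 19111 on chromosomes 1 to 22. Of these genes, 767 had 1 feature and 32 had 5 or more. With wells merged, 1033 genes (5.41%) had a feature.

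LRATD1 had the most, 9 features in 10 to 27 nuclei, spread over 907 kb on chromosome 2. EPHA4 and EPHA7, which encode ephrin receptors that guide axons and sort cells, had 8 each. The EPHA4 features were seen in 10 to 36 nuclei. They lay from 32478 to 337972 bp upstream of the gene, and 2 of them overlapped, at chr2:221715504-221716504 with 36 nuclei and at chr2:221716092-221717092 with 14. The EPHA7 features were seen in 11 to 25 nuclei, between 246002 and 428511 bp away. Some of the EPHA7 features overlapped too, such as those at chr6:93103858-93104858 and chr6:93104576-93105576. The start of EPHA4 itself was open in 26 nuclei and that of EPHA7 in 28, while no feature lay within 1000 bp of the start of LRATD1.

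FIGN, which encodes the microtubule-severing enzyme fidgetin, and LYPLAL1 also had 8 features each, in 10 to 22 and 10 to 20 nuclei. Some of the FIGN features overlapped, such as those at chr2:163551400-163552400 and chr2:163551720-163552720. The 6 with 7 were CHL1, a neural adhesion gene (10 to 29 nuclei), OR4D9, an olfactory receptor gene (10 to 28), RRP15, a ribosome assembly gene (12 to 24), SEMA6A, a transmembrane semaphorin (10 to 20), TMTC4 (11 to 18) and ZP4, a zona pellucida gene (10 to 18). Most of these genes had wide intergenic surroundings, with 926 kb of eligible sequence nearest to LRATD1 and 687 kb nearest to EPHA4.

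OR4D9 was different. Its 7 features lay within 9.75 kb, in a lncRNA gene on chromosome 11, and only 37 kb of eligible sequence had OR4D9 as the nearest gene. They were not 7 separate sites, since some overlapped and a read pair counts in each feature it overlaps. Those starting at 59548798, 59549388 and 59549999 formed 1 stretch, and those starting at 59556958 and 59557549 another. The feature at chr11:59549999-59550999 was seen in 15 nuclei of plate 1 and 13 of plate 2, and that at chr11:59556958-59557958 in 15 and 7. The other 5 were seen in 10 to 13 nuclei. The start of OR4D9 had no feature within 1000 bp, so this dense stretch lay beside a gene whose own start was not seen open.

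Gene lists were compared by how many of their genes were nearest to at least 1 recurrent feature, beside 6.15% of all protein-coding genes. Developmental transcription factors stood highest, with 18 of 40 genes (45%) and 28 features. Their intergenic surroundings were wide, with a median of 385.5 kb per gene, beside 12 kb for all protein-coding genes. Among all genes with 200 to under 500 kb, 40.6% had a recurrent feature, so the list was near genes with as much room. With wells merged, 16 of the 40 had a feature. NR2F2, a nuclear receptor, had 5 features (10 to 22 nuclei), SOX2 had 3 (11 to 13 nuclei, 431136 to 473608 bp away) and OTX2 had 3 (11 to 12 nuclei). KLF4 and ID2 had 2 each. Genes with a single feature included MEIS2 (20 nuclei), KLF5 (19) and ID1 (18), a regulator lacking a DNA-binding domain, whose feature lay 9378 bp away.

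Of the Hippo and TEAD targets, 4 of 22 genes had a feature, namely F3, TGFB2, NT5E and ASAP1, in 10 to 13 nuclei. Of the AP-1 genes and partners, 1 of 12 did. It was JUN, with a feature in 14 nuclei, and its start was open in 39 nuclei. Of the mesenchymal and adhesion genes, 3 of 18 did, namely ITGAV, FN1 and CDH2. ITGAV, an integrin subunit, had 2 overlapping features in 11 nuclei each, and FN1, fibronectin, 1 in 18 nuclei. Their surroundings were wider than those of genes at large, with list medians of 57, 31 and 82.5 kb beside 12 kb over all protein-coding genes. Among all genes with 50 to under 200 kb, 11.1% had a recurrent feature, and among those with 1 to under 50 kb 1.88%.

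Of the hematopoietic genes, 3 of 15 on these chromosomes had a feature. The feature 297315 bp from PTPRC, which encodes CD45, was seen in 28 nuclei, that near MYB in 21, and 2 overlapping features near CD34 in 17 and 18. No feature lay within 1000 bp of the starts of PTPRC and CD34, while that of MYB was open in 4 nuclei. The list had a median of 83 kb of eligible sequence per gene. Among all genes with 50 to under 200 kb, 11.1% had a recurrent feature. A start with no feature within 1000 bp was common, at 52.1% of all protein-coding genes. With 3 genes, the list is a description and is not set apart from other genes. Of 20 interferon response genes none had a feature, and of 20 ribosomal protein genes 1 did, RPL3 (11 nuclei). These lists have medians of 0 and 2.5 kb of eligible sequence, beside 12 kb over all protein-coding genes.

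Genes near the recurrent features were more often open at their own start than protein-coding genes at large. For 792 of the 1872 features (42.3%), the nearest gene had a feature in 10 or more nuclei within 1000 bp of its start, and over all protein-coding genes this was 18.5% (3540 of 19111). Intergenic features as such share this, with 41% for those seen in 5 to 9 nuclei, 37.8% for 2 to 4 nuclei and 33% for 1 nucleus. For the 238 recurrent features seen in 20 or more nuclei it was 52.9%, and for the 1533 left with wells merged 42.1%. Counted by gene, 464 of the 1175 nearest genes (39.5%) had such a start. For 665 features (35.5%), on the other hand, no feature at all lay within 1000 bp of the nearest start. This was so for 37.3% of intergenic features seen in 2 to 9 nuclei and for 52.1% of all protein-coding genes. Starts not seen open at this depth were thus less common beside the recurrent features than among genes at large.

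The base composition was close to that of the rarer intergenic features. The median GC content was 39.6%, beside 40.3% for intergenic features seen in 2 to 9 nuclei and 61.5% for recurrent gene starts. The ratio of observed to expected CpG, which is low where methylated CpGs have been lost and near 1 in CpG islands, had a median of 0.187 beside 0.790 at gene starts. A small part looked like islands, though. A share of 5.77% had a GC content of 50% or more with a ratio of 0.6 or more, beside 1.44% of features seen in 2 to 9 nuclei, 2.51% of recurrent intragenic features and 90.9% of recurrent gene starts. Among those high in nuclei were features near ZNF648 (36), KCNH8 (30), and GAP43 and OR4D9 (28 each). The KCNH8 feature lay 1102 bp from any annotated start, just outside the limit of the rule. The ZNF648 feature lay 27654 bp from any start. Of the CpG-rich features, 18 lay within lncRNA genes. With wells merged, the CpG-rich share was 5.87% of the 1533 features.

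Motifs were searched as exact words on both strands, and CTCF as its 12-letter consensus with at most 1 mismatch. A match is a description of the letters and not of binding. Within the whole feature, the POU octamer ATGCAAAT was found in 20.1% of the recurrent intergenic features, beside 11.2% of all 80971 features. The SOX motif AACAATG was found in 24.8% beside 18.8%, the AP-1 site TGACTCA in 19.3% beside 15.5%, the TEAD motif ACATTCC in 18.4% beside 14.1%, and CTCF in 8.28% beside 11%. The POU, SOX, AP-1 and TEAD words were thus more frequent than in features at large, and CTCF less so.

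The POU octamer lay toward the centre of the feature, which is the peak's summit. Within 100 bases of the centre it occurred 0.396 times per kb and in the outer 800 bases 0.192 times, a ratio of 2.07. For AP-1 the ratio was 1.85, for SOX 1.53 and for TEAD 1.31. Intergenic features seen in 2 to 9 nuclei had ratios of 1.53, 1.25, 1.25 and 1.23. Those seen in 5 to 9 nuclei alone were at 1.99, 1.44, 1.54 and 1.31, and recurrent intragenic features at 2.405, 1.70, 1.83 and 1.06. The central place of the POU, AP-1 and SOX words was thus shared with these classes. CTCF matches were central as well, with a ratio of 2.80 in recurrent features and 3.61 in the rarer ones. In the plots of matches by distance from the centre, POU and AP-1 stand above the rarer features near the centre and CTCF below them.

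**Figure D4:**
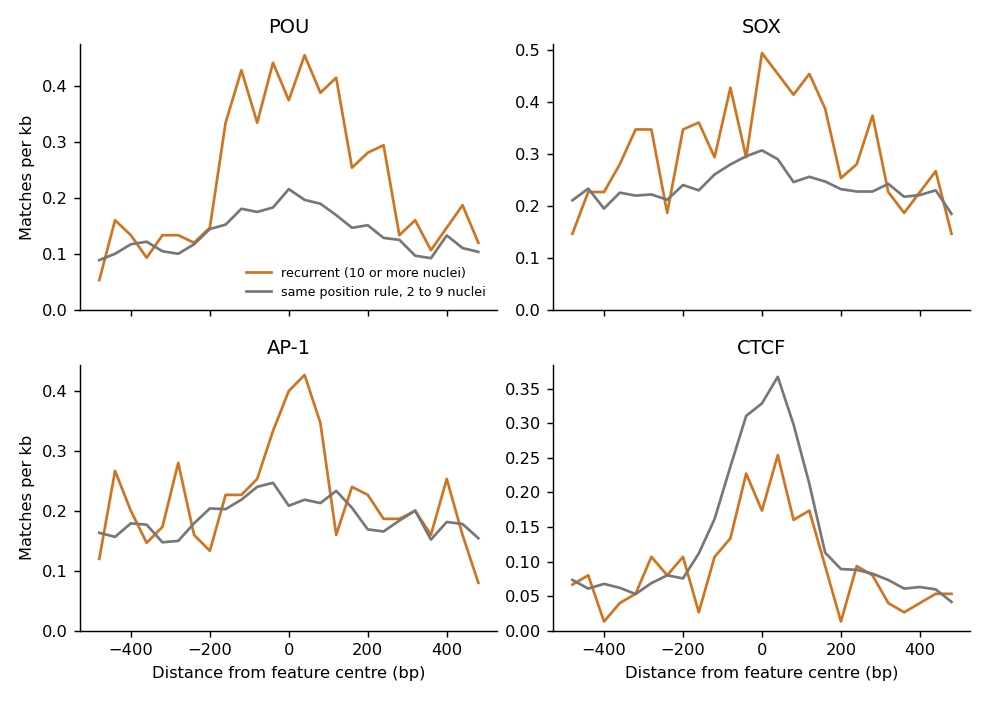
Motif matches per kb against the distance from the feature centre, in bins of 40 bp, for the 1872 recurrent intergenic features and the 22144 features of the same position seen in 2 to 9 nuclei. In the recurrent features POU and AP-1 matches gather near the centre (0.396 and 0.351 per kb within 100 bases of it, beside 0.191 and 0.225 in the rarer ones), and CTCF matches are fewer there (0.189 beside 0.307).

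Set by number of nuclei, the motifs took different courses. The share of features with the POU octamer within 150 bases of the centre was 4.37% for features seen in 2 to 4 nuclei, 7.82% for 5 to 9 and 10.7% for the recurrent ones. The SOX motif was at 7.27, 9.46 and 11.1%, and at 13.9% among features seen in 20 or more nuclei. AP-1 was at 5.95, 6.96 and 8.60%, and at 6.72% among features in 20 or more nuclei. CTCF went from 6.39% at 2 to 4 nuclei up to 10.2% at 5 to 9 and down to 4.59% in the recurrent features. The E-box CAGGTG was at 19.9, 14.5 and 10.6%. With wells that share features merged, POU was at 5.33, 8.41 and 10.6%, CTCF at 9.03, 9.83 and 4.04% and the E-box at 18.8, 14.1 and 10.7% for features of 2 to 4, 5 to 9 and 10 or more nuclei, so the orders were the same.

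**Figure D5:**
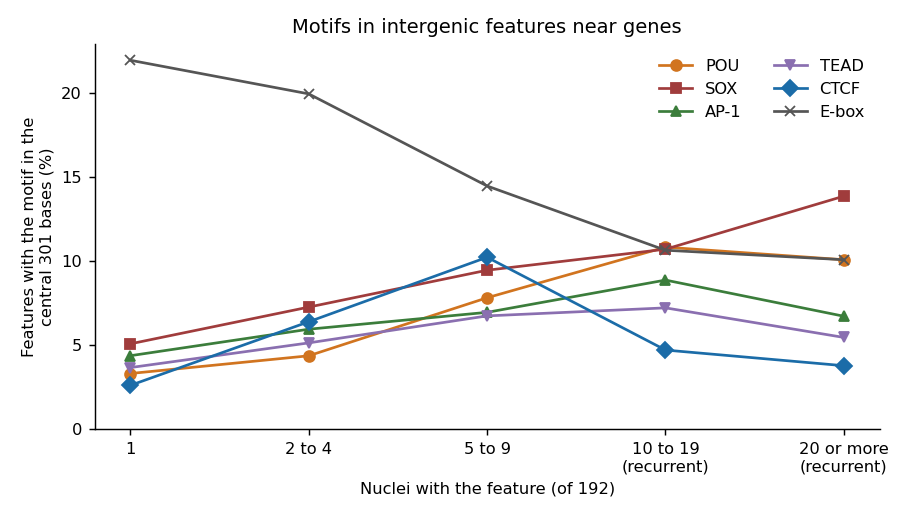
Percentage of intergenic features near genes with each motif within 150 bases of the centre, by the number of nuclei that showed the feature. POU is at 4.37% for 2 to 4 nuclei and at 10.8 and 10.1% for 10 to 19 and 20 or more, CTCF is highest at 5 to 9 nuclei (10.2%), and the E-box is at 19.9% for 2 to 4 nuclei and 10.1% for 20 or more.

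Recurrent features inside genes were alike in these words, with POU in 9.83%, SOX in 12.6%, AP-1 in 8.46% and CTCF in 3.20% within 150 bases of the centre. Recurrent gene starts were different, with POU in 1.45%, SOX in 1.45%, AP-1 in 1.59% and CTCF in 6.81%. The SP and KLF word GGGCGGG, found in 78.4% of recurrent gene starts as a whole, was in 7.69% of the intergenic features, and the ETS word CCGGAAG was in 29% of the former and 3.69% of the latter. Among other words, the TFAP2 word GCCNNNGGC was within 150 bases of the centre in 8.65% of the recurrent intergenic features, beside 5.85% of those seen in 2 to 9 nuclei, and in the whole feature in 17.5% beside 14.6%. By the whole feature, the IRF word GAAANTGAA was at 13.2% beside 11.3%, and the NF-kB word GGGANTTTC at 4.38% beside 3.64%. The GATA word AGATAAG was in 14.7% of the whole recurrent intergenic features beside 14.1%. The FOX word TGTTTAC was found in 18.5% of them beside 16.8%, and the TCF/LEF word ATCAAAG in 17.8% beside 16.7%. Rare in the intergenic features were 4 other words. The NRF1 word GCGCATGCG was found in 0.267% of the recurrent intergenic features and the CRE word TGACGTCA in 0.427%, while the CEBP word TTGCGCAA was in 0.214% and the YY1 word AAGATGGCG in 0.160%. In recurrent gene starts, NRF1 was at 5.14%, CRE at 4.60%, CEBP at 0.833% and YY1 at 5.72%.

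Features with a POU or a SOX word within 150 bases of the centre numbered 392 (20.9%), beside 12.4% of features seen in 2 to 9 nuclei and 2.90% of recurrent gene starts, and 17 had both. The joint element shown above, allowing 2 mismatches, was in 8.12% of recurrent intergenic features, 8.63% of recurrent intragenic ones, 5.68% of intergenic features seen in 5 to 9 nuclei, 2.78% of those seen in 2 to 4 and 0.435% of recurrent gene starts. With 1 mismatch it was in 14 features (0.748%, beside 0.183% at 2 to 4 nuclei), and without a mismatch in 0 of the 1872. The 86 features with a central CTCF match lay closer to genes, at a median of 54521.5 bp beside 114234 bp for the others.

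Some of the features are copies of one another. When the 1872 sequences were aligned to each other, 205 (11%) fell into 29 groups that shared at least 200 bases over the feature centre at 75% identity or more, and 12 groups had 5 or more. These groups were made after the values were seen, and, with no repeat annotation used here, they are described by their sequence alone. As the groups were built from the recurrent features, their shares below are a description. The largest group had 36 features on 15 chromosomes, among them the BRINP3 feature seen in 39 nuclei, and 16 of them had a TEAD word within 150 bases of the centre. Over all the groups, TEAD words were in 16.6% of the features, beside 5.82% of those outside them.

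The second group had 29 features on 10 chromosomes, seen in 10 to 32 nuclei, with a median identity of 90.4% over a median of 720 bases. The feature near NNT, a mitochondrial transhydrogenase gene, was seen in 15 nuclei of plate 1 and 17 of plate 2, that near TMEFF2 in 12 and 12 and that near EPHA7 in 9 and 10. Features of this sequence made up 1.55% of the recurrent set, 1.21% of intergenic features seen in 5 to 9 nuclei, 0.224% of those seen in 2 to 4, and 0 of 2761 recurrent gene starts. The fourth group took the opposite course. Its sequence, with 17 recurrent features, was in 0.801% of the recurrent set by alignment to 1 representative, in 1.35% of features seen in 5 to 9 nuclei and in 4.49% of those seen in 2 to 4. In the same order, and again by alignment to 1 representative, the largest group was at 1.12, 0.751 and 1.03% and the third at 0.962, 1.85 and 1.11%. The fifth was at 0.321, 0.462 and 0.254% and the seventh at 0.481, 0.212 and 0.0944%. This alignment found 21 recurrent features for the largest group, which has 36, and 6 for the fifth, which has 12. Their shares thus leave out a large part of these 2 groups. The groups thus took different courses.

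The octamer was within 150 bases of the centre in 9 of the 36 features of the largest group, 5 of the 12 of the fifth and most of those of the sixth and eighth. The sixth had 11 features in 10 to 38 nuclei, 9 of them with the octamer there, and the NDUFB4 feature was its most often seen. The eighth had 7 features in 11 to 17 nuclei, 5 of them with it. Sequences like the sixth were 0.588% of the recurrent set and 0.0767% of features seen in 2 to 4 nuclei, and those like the eighth 0.374 and 0.0590%. Outside all groups, 9.48% of the other 1667 features had a central octamer, so most features with one lay outside them.

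Reads of a sequence with copies elsewhere can be placed in either. The groups came from blastn, while the whole of hg38 was searched with minimap2, which mostly found closer copies and missed many places of low identity, so the counts of the searches are not on 1 scale. By minimap2, 6.46% of the features had at least 1 other place of 200 bases or more over their centre, with a median best identity of 94%, and 59 had 10 or more. Of the 205 features in the groups, 76 were among them. In a group or with such a place were 250 features (13.4%). For those with a place found by minimap2, the share of seen nuclei with 2 or more read pairs was 14.5%, beside 17% in the others. Of the 20 features seen in the most nuclei, minimap2 found such a place for the GBA3 feature, with 94.9% identity, and the BRINP3, NDUFB4 and OTOL1 features were in the groups. None of the 1872 aligned to the mitochondrial genome.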

How the data were processed

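Plate-based snATAC-seq of HAP1 nuclei, 96 from each of 2 plates, was analysed. Per the Methods, the authors trimmed and aligned the reads of each nucleus with bowtie2 (hg38), discarded those that were mitochondrial, of low mapping quality or duplicated, and ran MACS2 on all nuclei jointly, with 500 bp added to either side of each summit. The deposited table gives a raw count of read pairs for every feature in every nucleus, not normalized. The authors obtained it with featureCounts, at version 1.6.0 per the file header. A read pair counts in each feature it overlaps, and duplicates were removed within a nucleus only. Every value column was matched to 1 nucleus (0 unmatched).

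Starts and gene bodies came from GENCODE 44, and a feature was seen in a nucleus if its count was above 0. A nucleus passed if it had more than 300 features that were seen in more than 1 nucleus. Nuclei of 1 plate are not replicates, so values are given per plate with no test. The CpG ratio is the CpG count times the length, divided by the product of the C and G counts. Alignments used minimap2 (version 2.31) and blastn (version 2.17.0). Computation used pysam 0.24.0 and matplotlib 3.10.9 with pandas 2.3.3, SciPy 1.17.1 and NumPy 2.4.6 under Python 3.11.15. The motif search, the reading of the other plate and the thinning were tested on simulated data. Read pairs without molecular identifiers are not independent molecules.

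Features named were the 20 seen in the most nuclei, the 5 with the highest share of seen nuclei with 2 or more read pairs among those in 20 or more nuclei, the 5 with the largest plate difference, and the 3 nearest to and 3 farthest from a gene start. Genes named were the 10 with the most features and those of the lists with a feature. Others named were chosen after their values were seen. Some items that these rules select are not reported here. The features and lists were chosen with earlier results of these data known. Alternatives varied the minimum of nuclei, the nuclei used, the distances, the fold, the motif windows and the mismatches.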

Additional observations from a re-analysis of the deposited data

How the results depend on the processing

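No paired analysis was possible because a plate is 1 sample, the numbers only tell the nuclei of a plate apart, and no test was made. A value was taken as the same if a count or median stayed within 1.5 times and a share within its exact interval. Of 47 alternatives, 6 of them (for POU and SOX words) added after seeing the data, 21 gave the same value and 26 did not. The number of features was 7062 with at least 5 nuclei, 617 with 15 and 238 with 20, by construction, 880 within 100 kb, 34 with 2 or more read pairs asked of a nucleus, and 344 without nuclei 37 to 48 and 73 to 96, where fewer nuclei were counted. Their share of read pairs moved from 6.74 to 6.86% after thinning to 600 read pairs, which left out 46 nuclei, and to 7.55% without those nuclei. Features chosen on plate 1 were in 4.39% (at least 4 nuclei) and 8.05% (at least 8) of the nuclei of plate 2, against 1.46 and 1.84% for the others, and features chosen on plate 2 in 4.27 and 8.18% of plate 1, against 1.57 and 1.93%, and in 7.73% without those nuclei, against 2.35%. The CTCF share was 2.03% with 0 mismatches, 4.59% within 150 bases of the centre and 6.69% without those nuclei. Within 150 bases of the centre, AP-1 was at 8.60%, TEAD at 7.00%, POU at 10.7% and SOX at 11.1%, as a shorter window holds fewer words, and AP-1 was at 15.1% with at least 20 nuclei. The nearest start was recurrent for 36.5% if a feature had to contain it. Plate differences reached 1.5-fold in 47.5%, 3-fold in 7.21%, 2-fold over all nuclei, passing or not, in 26% and without those nuclei in 40.4%, beside 46.6, 6.63, 25.1 and 38.7% of all recurrent features. Where no cause is given, the cause was not tested. Depth limits the set, since a passing nucleus showed at most 587 of the 1872 features, and a site open in every nucleus can be seen in few.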

Other observations

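Chromosome X, which the rule leaves out, had 1795 features of the same position, of which 7.19% were seen in 10 or more nuclei (beside 7.36% on chromosomes 1 to 22). These were seen in a median of 13 nuclei and at most 48. The highest were near SLITRK2, a synaptic adhesion gene (23 nuclei of plate 1 and 25 of plate 2), HTR2C, a serotonin receptor gene (20 and 23), and SH3BGRL (13 and 27), named after their values were seen. The POU octamer was within 150 bases of the centre in 11.6% of them and the SOX word in 13.2%, beside 10.7 and 11.1% of the recurrent intergenic features of chromosomes 1 to 22.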
